A study of Saccharomyces cerevisiae with 18 samples.

Results

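Glycogen is the branched glucose polymer that budding yeast lays down as a reserve, and the genes described here encode the enzymes that build it, take it apart and supply its precursor. They are GLG1 (YKR058W) and GLG2 (YJL137C), GSY1 (YFR015C) and GSY2 (YLR258W), GLC3 (YEL011W), GPH1 (YPR160W), GDB1 (YPR184W), PGM2 (YMR105C), UGP1 (YKL035W) and GAC1 (YOR178C), 10 genes of the 6212 in the deposited table. They were picked by systematic name for their function in the pathway, with earlier results of these data known. Of the 10, 9 had a value on at least 1 array and 5 (GSY2, GLC3, GDB1, PGM2 and UGP1) on all 18 arrays. GPH1, which encodes glycogen phosphorylase, was listed without any value, so nothing is reported of it.

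A glycogen molecule starts on glycogenin, a protein that attaches glucose to itself, and glycogen synthase lengthens the chain with glucose taken from UDP-glucose. A branching enzyme then moves short stretches to side positions, while phosphorylase and the debranching enzyme return the glucose. Yeast is known to store glycogen when growth slows or nutrients run short. Glycogen synthase is held inactive by phosphorylation and is activated when the protein phosphatase Glc7, guided by a targeting subunit such as Gac1, removes the phosphates.

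The cells were wild-type BY4741, a haploid laboratory strain that carries deletions in HIS3 (a partial one), LEU2, MET17 and URA3 on both sides of every comparison. One culture was kept in Translucent medium free of potassium (about 15 µM left) and the other in that medium with 50 mM KCl, and RNA was taken 10, 20, 40, 60 and 120 min after washing. The labels name KCl in the medium before the wash for the control culture alone, whereas the design text speaks of a sudden shortage. Each array carried RNA of both cultures in different dyes, so a value is a log2 ratio, with positive values for more RNA in potassium-free cells. This direction is the order of the array titles and is likely, not stated, and the log base is likely from the range of the values.

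There were 2 arrays at 10 min, from 1 experiment, and 4 arrays from 2 experiments at each later time point, with a dye swap in each. Arrays 1 and 2 of a time point were taken as experiment A and arrays 3 and 4 as experiment B. The arrays held values for 3913 to 5372 genes, with array medians from -0.24 to 0.18, and their number limits the precision. As a check of the strain, the MATa gene STE2 had a value on 13 of 18 arrays and the MATalpha gene STE3 on 4. Of the deleted genes, LEU2 had values on 6 arrays, MET17 on 5 and URA3 on 16, and HIS3, of which a part remains, on 18, so a value on an array does not by itself show a transcript. Ratios are relative to the other genes of an array, and a change in RNA per cell cannot be told apart from it.

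Glycogen genes were higher in potassium-free cells than in KCl cells from 40 min on, some at 40 min and every one tested at 60 min. At 60 min, 7 of the 10 could be tested and all 7 rose, PGM2 most (12.4-fold) and GAC1 least (3.03-fold). At 40 min 4 of 9 tested members rose, and at 120 min 7 of 8. None of those tested fell at any time point. GLG2, which could be tested at 40 min alone, had only values below 0 at the other time points. At 60 min the call of GSY1 was lost without experiment A (mean 1.88) and without experiment B (2.22). That of GAC1 was lost without array 1 or experiment A. All 4 calls at 40 min were lost without array 3, where limma still called 278 of 4730 genes in all. They were lost too without experiment A, which leaves 1 experiment at 40 min, with means from 0.64 (GDB1) to 1.21 (GSY2). Without experiment B those of GSY2, GLC3 and UGP1 were lost, with means of the 4 from 1.96 (GSY2) to 2.335 (GDB1). At 120 min, 2 of the 7 calls (GLC3 and GDB1) were kept without experiment B (565 of 4113 genes called) and 4 (those and GSY2 and UGP1) with all arrays brought to 1 common spread. The test was limma's moderated test against 0 with Benjamini-Hochberg adjustment over all genes tested, at an adjusted p of 0.05. By the same rule 8.93% of all genes tested were called at 40 min (5.23% higher, 3.7% lower), 46.8% at 60 min (21.7% higher, 25.1% lower) and 42.3% at 120 min (20.4% higher, 22% lower). Medians of the mean log2 ratios were 1.49 over the 9 members tested at 40 min, 2.63 over 7 at 60 min and 1.63 over 8 at 120 min, against 0.01, -0.09 and 0.00 over all genes tested.

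**Figure D1:**
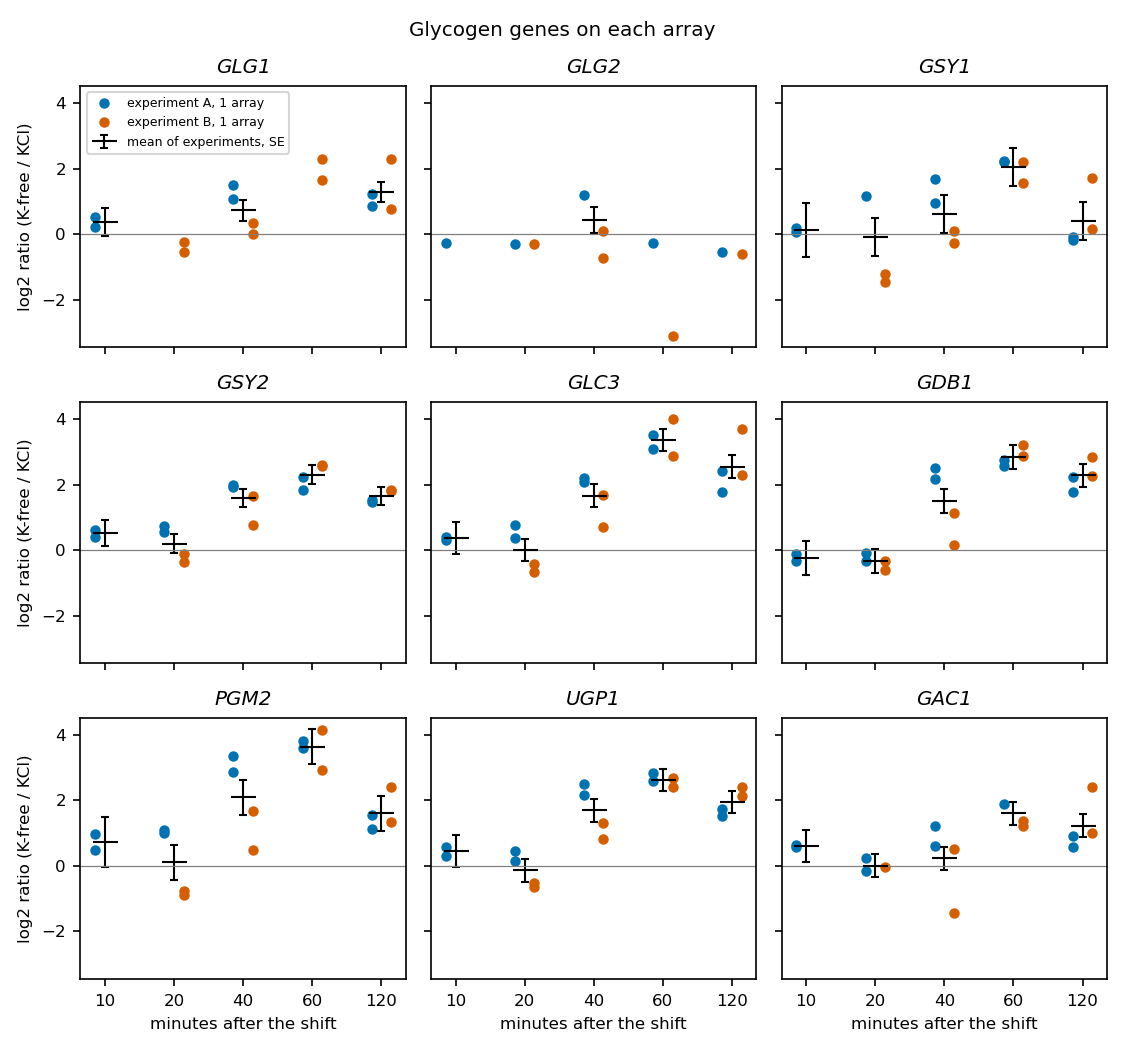
Log2 ratio between potassium-free and KCl cells (vertical axis) for 9 glycogen genes at each time point (horizontal axis, minutes, not to scale), with a point for each array coloured by experiment and the mean of the experiments with its SE where it was tested. At 60 min every value of GSY1, GSY2, GLC3, GDB1, PGM2, UGP1, GAC1 and GLG1 lies above 0, and at 20 min the points of experiment B lie below 0.

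Both synthase genes rose at 60 min, and GSY2 also passed at 40 and 120 min. GSY2, which encodes the major glycogen synthase, read 1.98, 1.93, 1.66 and 0.77 on arrays 1 to 4 at 40 min. It read 2.23, 1.83, 2.60 and 2.56 at 60 min and 1.52, 1.46, 1.82 and 1.81 at 120 min. All 12 values were above 0, the lowest being array 4 of 40 min. Its mean was 1.59 ± 0.28 (SE, 2 experiments; adjusted p = 0.022 in limma) at 40 min, 2.30 ± 0.28 (adjusted p = 0.00112) at 60 min and 1.65 ± 0.28 (adjusted p = 0.00412) at 120 min. GSY2 thus passed at 3 time points, although the call at 40 min was lost without array 3 (adjusted p = 0.057).

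GSY1, the gene of the second synthase, read 0.95, 1.68, 0.11 and -0.27 at 40 min. At 60 min it read 2.23, 2.21, 1.56 and 2.21, and at 120 min -0.09, -0.16, 0.17 and 1.72. It was high on all 4 arrays of 60 min alone, while at 120 min array 4 stood apart from 3 arrays near 0. The mean was 2.05 ± 0.58 at 60 min (adjusted p = 0.0227 in limma), a 4.14-fold rise, and 0.41 ± 0.58 at 120 min (adjusted p = 0.588). With all arrays brought to 1 common spread the value at 60 min was 1.46 and did not pass (adjusted p = 0.347). That scaling shrinks the values of 60 min, where array SDs were 1.06 to 1.3, against 0.384 to 0.555 at 20 min. With it limma called 1157 of 4127 genes at 60 min, against 1932 without it. Over the 8 experiments of 20 to 120 min the log2 ratio of GSY2 exceeded that of GSY1 by 0.686 ± 0.725 (SD, n = 8), in 6 of 8 experiments. The exact permutation test over experiments, each taken as independent, gave p = 0.0469 (two-sided), or 0.0625 adjusted over 4 pairs of genes. The difference between the isozymes thus did not pass. By time point it was -0.53 and 1.09 at 20 min, 0.64 and 1.29 at 40 min, -0.19 and 0.70 at 60 min, and 1.62 and 0.87 at 120 min, in experiments A and B in that order.

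GLC3, the branching enzyme gene, was among the steepest risers. It read 2.07, 2.19, 1.69 and 0.70 at 40 min, 3.08, 3.50, 2.87 and 4.01 at 60 min and 2.41, 1.78, 2.29 and 3.70 at 120 min. The experiments overlapped at 60 and 120 min, and array 4 was the lowest at 40 min and the highest afterwards. GLC3 rose to 3.37 ± 0.35 at 60 min (10.3-fold, adjusted p = 0.000681 in limma) and was still 5.84-fold higher at 120 min (2.55 ± 0.35, adjusted p = 0.00192). At 40 min its mean was 1.66 ± 0.35 (adjusted p = 0.0328, or 0.0804 without array 3).

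The glycogenin genes were measured on fewer arrays. GLG1 had no value on the arrays of experiment A at 20 and 60 min, and read 1.65 and 2.29 in experiment B at 60 min. At 120 min it read 0.85, 1.23, 0.78 and 2.29, all above 0. Its mean at 120 min was 1.29 ± 0.31 (adjusted p = 0.0247 in limma, or 0.0653 without array 4). At 40 min, with 1.09, 1.495, -0.00 and 0.34, it did not pass (0.73 ± 0.31, adjusted p = 0.20). GLG2 had values on 10 arrays and could be tested at 40 min alone, with 1.19 on array 2, -0.72 on array 3 and 0.09 on array 4 (mean 0.44 ± 0.40, adjusted p = 0.528). Elsewhere its values were below 0 on every array that held one: -0.26 and -3.10 at 60 min and -0.54 and -0.60 at 120 min. GLG2 lay below GLG1 by -1.54 ± 1.93 (SD, n = 6 experiments with both), with 1 of the 6 differences above 0. Values from time points at which these genes were not tested were kept here. Outside experiment B of 40 min, each GLG2 value came from 1 array without its dye swap. The exact permutation test gave p = 0.0625 (two-sided, adjusted p = 0.0625), where the smallest possible with 6 experiments is 0.0312. The lone value of experiment B at 60 min, -5.06, was the lowest of these differences.

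On the breakdown side GDB1, the debranching enzyme gene, was the measured member. It read 2.17, 2.50, 1.13 and 0.16 at 40 min, 2.74, 2.57, 2.87 and 3.20 at 60 min and 2.23, 1.78, 2.26 and 2.84 at 120 min. At 10 and 20 min all 6 values were below 0, from -0.62 to -0.10, and from 40 min all 12 were above 0. GDB1 was 7.18-fold higher at 60 min (2.84 ± 0.37, adjusted p = 0.0012 in limma) and 4.85-fold at 120 min (2.28 ± 0.37, adjusted p = 0.00322). Its call at 40 min (1.49 ± 0.37, adjusted p = 0.0486) was lost without array 1, 2 or 3 (adjusted p = 0.0605, 0.0505 and 0.132). It was lost too with a value on at least 2 arrays as the filter (0.0611). At 60 min a gene of glycogen breakdown and genes of its synthesis thus stood higher in the same potassium-free cultures.

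The precursor genes rose as well. PGM2 encodes the major phosphoglucomutase, which interconverts glucose phosphates on the way to UDP-glucose. It read 2.87, 3.34, 1.68 and 0.47 at 40 min, 3.82, 3.605, 2.93 and 4.16 at 60 min and 1.13, 1.55, 1.33 and 2.40 at 120 min. The 40 min values spread over more than those of any other time point, with both arrays of experiment A above both of B. PGM2 reached 3.63 ± 0.53 at 60 min (adjusted p = 0.00182 in limma). At 40 min, at 2.09 ± 0.53, it did not pass (adjusted p = 0.0532, but 0.025 without array 4). At 120 min it was 1.60 ± 0.53 (adjusted p = 0.0455), a call lost without array 2 or 4 (adjusted p = 0.0582 and 0.083) and with all arrays brought to 1 common spread (0.288).

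PGM1, the gene of the minor phosphoglucomutase, stayed near 0, between -0.48 and 0.55 on the 17 arrays with a value. The log2 ratio of PGM2 exceeded that of PGM1 by 1.89 ± 1.48 (SD, n = 8 experiments), in 7 of 8 experiments. The exact permutation test, which takes the 8 experiments as independent, gave p = 0.0156 (two-sided, adjusted p = 0.0312 over the 4 pairs). The difference stayed between 1.65 and 2.26 when 1 experiment was left out. The difference was 0.91 and -0.71 at 20 min, 3.07 and 1.18 at 40 min, 3.46 and 3.57 at 60 min and 1.29 and 2.33 at 120 min, A before B. UGP1, which makes UDP-glucose, read 2.18, 2.49, 1.30 and 0.81 at 40 min, 2.84, 2.60, 2.40 and 2.68 at 60 min and 1.51, 1.73, 2.13 and 2.40 at 120 min. Every one of these values was above 0, and at 60 min they lay closer together than those of the other members with 4 values. Its means were 1.69 ± 0.34 (adjusted p = 0.0304 in limma, or 0.055 without array 3), 2.63 ± 0.34 (adjusted p = 0.00123) and 1.94 ± 0.34 (adjusted p = 0.0046).

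GAC1, the gene of the Glc7 targeting subunit, rose at 60 and 120 min. It read 0.62, 1.22, -1.44 and 0.52 at 40 min, where array 3 was low and the mean was 0.23 ± 0.36 (adjusted p = 0.692 in limma). At 60 min the 3 arrays with a value read 1.90, 1.23 and 1.37, and at 120 min the 4 arrays read 0.59, 0.93, 0.99 and 2.41. Means were 1.60 ± 0.36 (adjusted p = 0.00855, or 0.0789 without array 1) at 60 min and 1.23 ± 0.36 (adjusted p = 0.0292, or 0.0647 without array 4) at 120 min. PIG1, the paralog of GAC1 and also a Glc7 partner, did not pass at any time point, with means from -0.37 to 0.10. GAC1 exceeded PIG1 in 8 of 8 experiments, by 0.909 ± 0.723 (SD, n = 8) on the log2 scale. The exact permutation test, which takes the 8 experiments as independent, gave p = 0.00781 (two-sided, the smallest 8 experiments allow, adjusted p = 0.0312). The difference stayed between 0.744 and 1.03 when 1 experiment was left out. At 20 min the difference was 0.08 and 0.14, and at 60 min 2.06 and 0.93, A before B. Signal shared between the probes of paralogs was not checked here for any of these pairs.

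**Figure D2:**
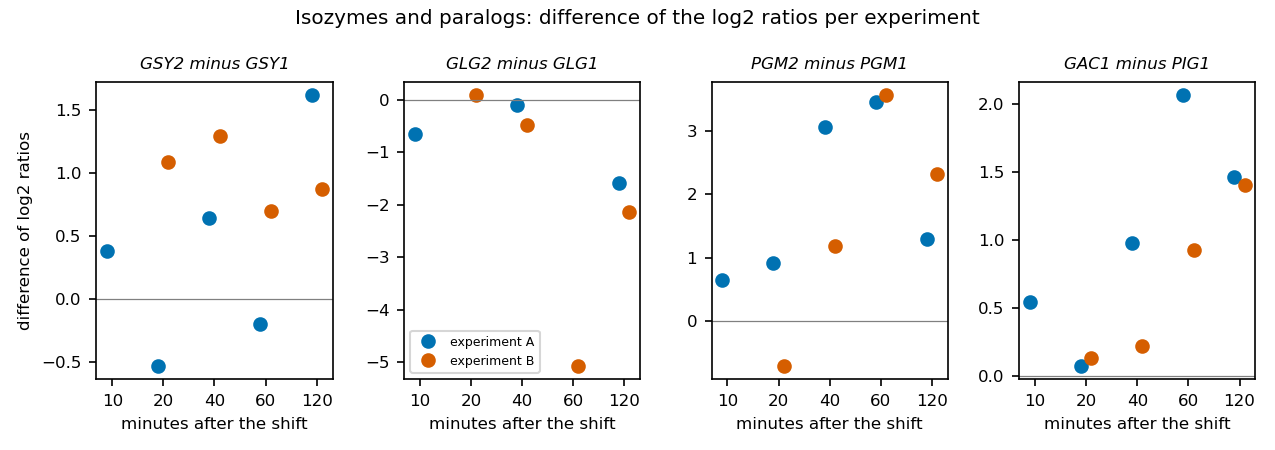
Difference of the log2 ratios of 2 related genes (vertical axis, a scale of its own in each panel) for each experiment at each time point (horizontal axis, minutes, not to scale). All differences of GAC1 minus PIG1 lie above 0, those of PGM2 minus PGM1 lie above 0 except in experiment B of 20 min, and those of GSY2 minus GSY1 lie on both sides.

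Before 40 min no member passed. At 10 min, in 1 experiment, the 8 tested members had means from -0.23 for GDB1 to 0.73 for PGM2, 7 of them above 0, and the median was 0.41. Limma called 0 of these 8 at 10 min and 0 of 7 at 20 min, with 0 at an unadjusted p under 0.05 at either time. Over all genes 0% were called at 10 min and 0.482% at 20 min (0.459% higher, 0.0229% lower), where 272 of 4361 had an unadjusted p under 0.05. The experiment at 10 min has no replicate, so its test borrows the spread of the later time points.

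At 20 min the experiments went opposite ways. In experiment A 6 of 8 members with a value were above 0, with a median of 0.43, while in experiment B 0 of 9 were, with a median of -0.48. Over all genes the medians were 0.03 and -0.00, and 53.7% and 49.5% of genes were above 0. PGM2 read 1.09 and 1.00 in experiment A and -0.76 and -0.88 in experiment B. GSY1 read 1.17 on the array of A that held a value and -1.45 and -1.23 on those of B. UGP1 read 0.46 and 0.14 in A against -0.63 and -0.53 in B, and GLC3 0.36 and 0.76 against -0.68 and -0.44. GSY2 read 0.74 and 0.54 in A against -0.37 and -0.12 in B. Each of these 5 genes was thus above 0 in one experiment and below 0 in the other, and the means near 0 at 20 min (GLC3 0.00 ± 0.35, PGM2 0.11 ± 0.53) are averages of unlike values.

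Both arrays of A lay above both of B for 5 of the 5 members with values on all 4 arrays at 20 min (GSY2, GLC3, GDB1, PGM2 and UGP1) and for 8 of 8 at 40 min. The same held for 16.3% of all genes at 20 min and 21.5% at 40 min, while 18.1% and 15.4% had both arrays of A below both of B. At 40 min the members' medians were 1.96 in A and 0.64 in B, and A exceeded B by 0.74 (GSY2) to 2.03 (PGM2). Few genes had a larger gap in that direction: 0.565% of all genes with both experiments exceeded that of PGM2 at 40 min and 7.7% that of GSY2. At 20 min the gap of GSY1, 2.51 with 1 array in A, was exceeded by 0.0228% of genes and that of PGM2, 1.87, by 0.159%. The 20 min gaps of GDB1, GAC1 and GLG2 were ordinary, exceeded by 21.5%, 43.6% and 52% of genes. At 60 min the medians met, at 2.44 in A and 2.54 in B, and of 6 members with all 4 values 0 lay higher in A (21.4% of all genes) and 2, GSY2 and GDB1, lower (26.4%). At 120 min the order was turned, with 1.34 in A and 1.82 in B, and 5 of 8 members had both arrays of A below both of B, against 26.7% of all genes, and 0 of 8 had them above, against 25.7%. Part of the glycogen genes' spread at 20 and 40 min was thus a gap between arrays 1 and 2 and arrays 3 and 4, taken here as A and B. The labels do not say that these are the experiments, and no value here shows what differed between their cultures.

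**Figure D3:**
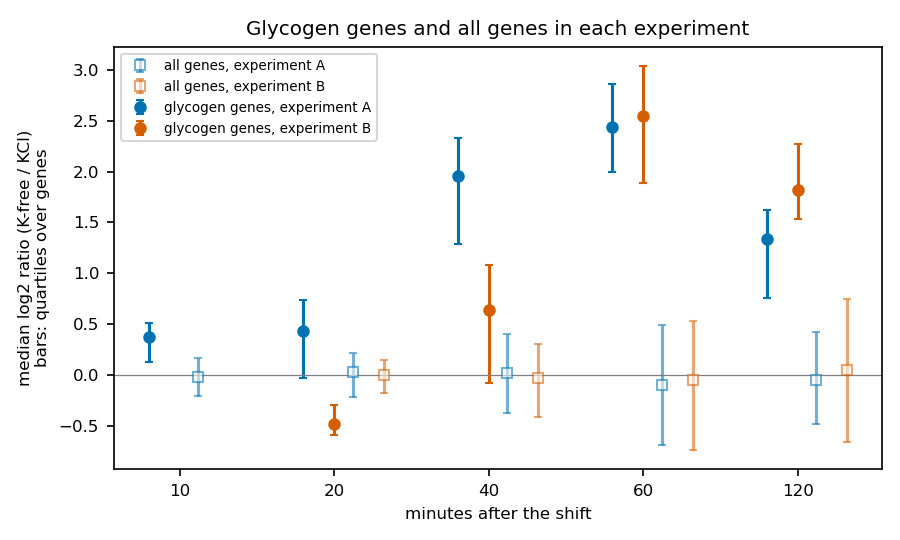
Median log2 ratio (vertical axis) of the glycogen genes with a value (filled circles) and of all genes (open squares) in experiments A and B at each time point (horizontal axis, minutes, not to scale), with bars for the quartiles over genes. The glycogen genes stand at 0.43 in A and -0.48 in B at 20 min, at 1.96 and 0.64 at 40 min, and meet at 2.44 and 2.54 at 60 min, while the medians of all genes stay near 0.

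The change over time was tested in the same fit, which took the experiments of each time point as independent of those of the others. From 20 to 60 min, 5 of the 7 tested members rose, where 24.9% of all genes tested changed (10.2% rose, 14.7% fell): PGM2 by 3.52 ± 0.76 on the log2 scale (adjusted p = 0.0198 in limma), GLC3 by 3.37 ± 0.49 (0.0139), GDB1 by 3.19 ± 0.52 (0.0147), UGP1 by 2.77 ± 0.48 (0.0147) and GSY2 by 2.11 ± 0.40 (0.016). GSY1 (2.14 ± 0.82, adjusted p = 0.0992) and GAC1 (1.60 ± 0.50, adjusted p = 0.0548) did not pass. All 5 calls were lost without experiment A of 20 min (adjusted p from 0.0502 to 0.0604), without experiment B of 20 min (0.0982 to 0.111) and without experiment B of 60 min (0.0717 to 0.0808). Those repeats called hardly any gene, 0 of 4075, 4 of 3370 and 1 of 3596 in that order, so the lost calls say little of the members. The differences themselves were 2.55 for GSY2 and 3.92 for GLC3 without experiment A of 20 min, and 1.66 and 2.81 without B. With all arrays brought to 1 common spread 1 member, GDB1, passed.

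From 60 to 120 min all 7 tested members had negative differences, from -2.03 ± 0.76 for PGM2 and -1.64 ± 0.82 for GSY1 to -0.37 ± 0.50 for GAC1. Limma called 0 of them (lowest adjusted p = 0.211, for PGM2), and 1 member had an unadjusted p under 0.05. Over all genes it called 0 of 3939, or 0%, with 792 at an unadjusted p under 0.05. Counting arrays in other ways gave calls: with the other pairing of arrays PGM2, GSY1 and UGP1 were lower at 120 than at 60 min (adjusted p = 0.0133, 0.0468 and 0.0391 in limma), among 655 of 3939 genes called, 263 of them lower. With each array as a replicate PGM2 and GSY1 were (0.0225 and 0.0458), among 694 genes called, 304 of them lower.

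Around the pathway, 29 genes were listed that regulate these enzymes or work next to them. At 40 min 2 of 26 tested rose, beside 5.23% of all genes, at 60 min 12 of 26, beside 21.7%, and at 120 min 8 of 26, beside 20.4%. At 120 min 2 of 26 fell, beside 22% of all genes. Both calls at 40 min (GLK1 and RAS2) were lost without array 1 and without array 3. With all arrays brought to 1 common spread GIP2, PCL6, REG1, HXK1 and BCY1 lost their calls at 60 min, and of the 10 at 120 min those of PIG2 and IGD1 were kept. Leaving out experiment A ended the calls of GIP2, PCL6, IGD1 and BCY1 at 60 min, and leaving out B those of the same 4 and of REG1, HXK1 and TPK2. At 120 min leaving out B ended the calls of GLC7, PSK1, PSK2, HXK1, HXK2, EMI2, TPK2 and TPK3. Leaving out A ended those of the same genes except TPK2. The medians were 0.30, 0.46 and 0.25, below those of the glycogen genes. At 10 and 20 min limma called 0 of 23 and 0 of 24, with 1 and 2 at an unadjusted p under 0.05. The kinase gene SNF1 and RIM15 had values on 3 and 4 arrays, and GLC8 on none.

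Among the Glc7 partners PIG2 and GIP2, a pair of paralogs, rose at 60 min. PIG2 read 2.14, 3.92 and 2.28 on the arrays of 60 min with a value (mean 2.66 ± 0.30, adjusted p = 0.00119 in limma) and had a mean of 1.83 ± 0.30 at 120 min (adjusted p = 0.00463). GIP2 read 1.78, 2.13, 2.67 and 2.69 at 60 min (2.32 ± 0.65, adjusted p = 0.0221) and did not pass at 120 min (1.74 ± 0.65, adjusted p = 0.0642). All 3 GIP2 values of 20 min lay far apart, at 1.44, -1.07 and -2.39. GLC7, the phosphatase gene itself, rose by 0.50 ± 0.16 at 120 min (adjusted p = 0.0396), a call lost without array 2 or 3 (adjusted p = 0.19 and 0.0514).

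Of the listed kinase and cyclin genes, and of genes related to them, some rose and others did not pass. Pho85 with the cyclin Pcl8 or Pcl10 phosphorylates the synthase, and PHO85, PCL8 and PCL10 did not pass at any time point at which they were tested, with means at 60 min of -0.36, -0.25 and 0.10. The related cyclin gene PCL6 rose at 60 min (0.78 ± 0.18, adjusted p = 0.0109 in limma). PSK1, a PAS-domain kinase gene, rose at 60 min (1.78 ± 0.20, adjusted p = 0.000957) and 120 min (0.78 ± 0.20, adjusted p = 0.0213), and its paralog PSK2 at 120 min (0.63 ± 0.19, adjusted p = 0.0334). REG1, another Glc7 partner, rose at 60 min (0.70 ± 0.20, adjusted p = 0.0234). IGD1, which encodes an inhibitor of the debranching enzyme, rose at 60 min (0.81 ± 0.20, adjusted p = 0.013) and 120 min (1.28 ± 0.20, adjusted p = 0.00284, or 0.0517 with 120 min fitted alone).

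The hexose kinase genes, which feed glucose into the pathway, split. HXK1 had the highest mean of the 29 genes at 60 min (3.02 ± 0.60, adjusted p = 0.00539 in limma), with 1.95 ± 0.60 at 120 min (adjusted p = 0.0359, or 0.0575 without array 4). It also read 1.68 and 2.05 at 10 min, where the glycogen genes were below 1, without passing (adjusted p = 1). GLK1 rose at 40 min (1.88 ± 0.46, adjusted p = 0.049) and 60 min (2.79 ± 0.46, adjusted p = 0.00279), and its paralog EMI2 at 60 min (1.86 ± 0.29, adjusted p = 0.00234) and 120 min (0.89 ± 0.29, adjusted p = 0.0453, lost without array 2 or 4). HXK2, the main kinase during growth on glucose, was above 0 on all 4 arrays of 20 min (0.65 to 1.78) and fell at 120 min (-0.66 ± 0.21, adjusted p = 0.0386, or 0.122 without array 1 and 0.0612 without array 3).

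Protein kinase A is known to oppose glycogen storage, and its subunit genes moved in both directions. TPK2 rose at 60 min (1.38 ± 0.25, adjusted p = 0.00403 in limma) and 120 min (0.83 ± 0.25, adjusted p = 0.0345, or 0.0635 without array 4), and TPK3 fell at 120 min (-0.80 ± 0.23, adjusted p = 0.0299, or 0.051 without array 1). BCY1, the inhibitory subunit gene, rose at 60 min (1.07 ± 0.25, adjusted p = 0.0107), and RAS2, the gene of a GTPase upstream, at 40 min (0.86 ± 0.20, adjusted p = 0.043) and 60 min (1.35 ± 0.20, adjusted p = 0.00183). MSN2 and MSN4, whose products activate many stress and carbohydrate reserve genes, did not pass at any time point.

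**Figure D4:**
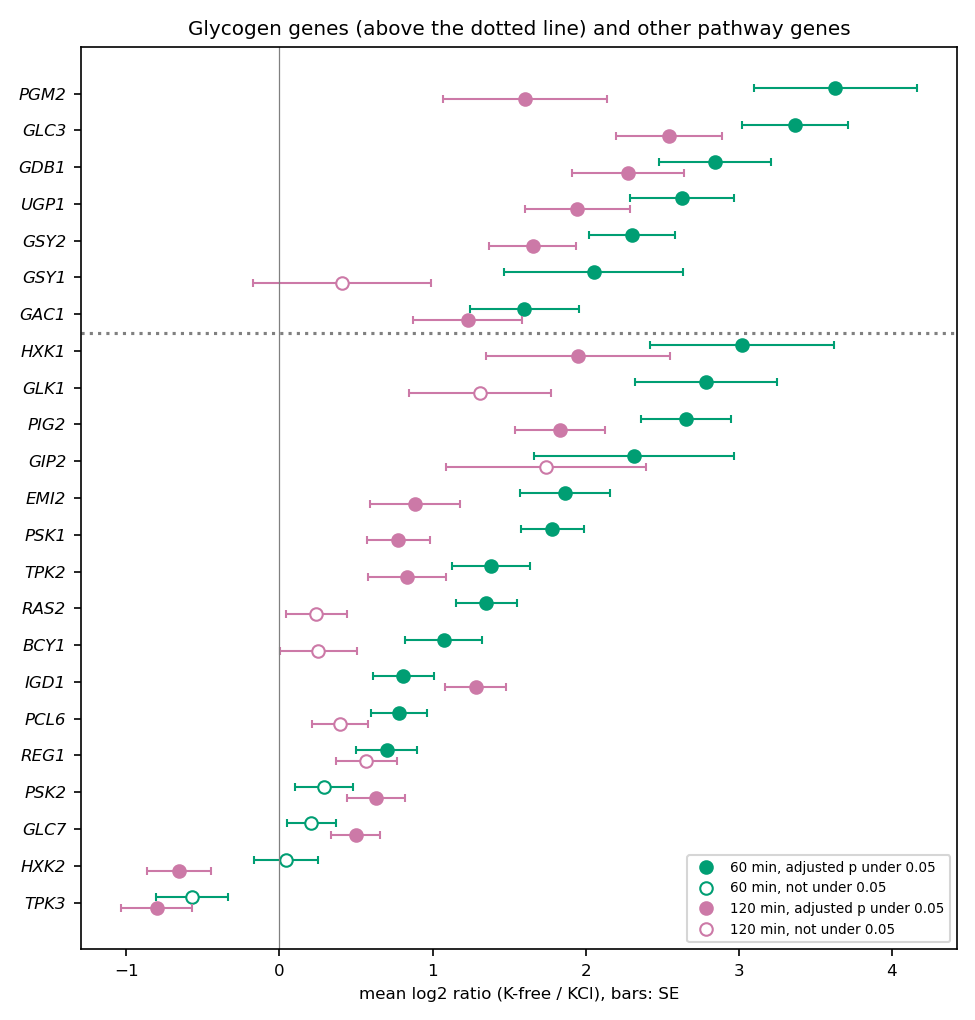
Mean log2 ratio between potassium-free and KCl cells (horizontal axis, bars for SE) at 60 and 120 min. Filled points are past an adjusted p of 0.05. Shown are glycogen genes tested at 60 min and pathway genes that passed at any time point, each set ordered by its 60 min value. Pathway genes named in the text that passed at no time point are not drawn. PGM2 and GLC3 lead at 60 min, and IGD1, PSK2 and GLC7 are higher at 120 than at 60 min in these means, a difference that did not pass a test.

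The mean profile of the 5 glycogen genes with values on all 18 arrays was set against the 2540 other genes with complete values. The 5 most similar were SSE2, an HSP110 chaperone gene (Pearson r = 0.981), DCS1, a gene of messenger RNA cap turnover (0.98), the vacuolar protease gene PRB1 (0.977), GOR1, a glyoxylate reductase gene (0.974), and the vacuolar aminopeptidase gene APE1 (0.974). These are correlations over the 18 arrays, given as a description, and the arrays share time points, dyes and RNA. The glycogen genes themselves had r from 0.947 for PGM2 to 0.987 for UGP1 with the profile they form. Means of SSE2 were 1.65 at 40 min, 3.18 at 60 min and 1.96 at 120 min, and those of APE1 1.57, 2.58 and 1.85.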

How the data were processed

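For each of 18 arrays the authors deposited a log ratio per gene, read here as log2, made from spots of at least 120 µm in diameter and 100 intensity units, per the labels. RNA (8 µg) came from cells grown at 28 °C to an absorbance of 0.6. The sources used here give no background correction, normalization, log base or array build, and no positions or sequences are printed. On 1 array at 10 min the labels give the same dye for both channels, and its title was followed. The labels do not say which arrays form an experiment. Each pair was averaged, giving 9 experiments, and fitted in limma 3.58.1 under R 4.3.3, which estimated every time point's mean with a common spread. A gene entered at a time point with values on at least 3 of 4 arrays (both at 10 min). P-values measure the spread between the 2 experiments of a time point, pooled over time points and moderated over genes, not that of 1 time point alone. Gene pairs were compared by exact sign flips over experiments, with no filter on arrays and each experiment taken as independent of the others. Of 5 planned pairs, GPH1 against GSY2 had no values. The fit was tested on simulated data. Named genes were all members, the listed pathway genes past the threshold at any time point, the 3 largest means of that list per time point from 40 min, and the 5 most similar profiles. Outside this rule, PIG1, PGM1, PHO85, PCL8, PCL10, MSN2, MSN4, SNF1, RIM15 and GLC8 were named after their values were seen, for what did not pass or had few values. One listed gene is not reported here and is left out of the list's counts. Members and lists were chosen with earlier results of these data known. Alternatives changed pairing, replication unit, dye, block, scaling, filter, prior, threshold and replicates.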

Additional observations from a re-analysis of the deposited data

Results flagged for a closer look

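Of 86 sets of 4 arrays (a glycogen gene or named pathway gene at a time point), 6 held an array whose gap to the nearest of the other 3, relative to the range of all 4, was above Dixon's critical value. That criterion flags about 1 set in 20 by its definition. They were GSY1 at 60 min, where array 3 read 1.56, below the others, PCL6 at 20 min with 0.71 on array 2, and PSK1 at 40 min with 0.073 on array 4. At 60 min array 1 stood apart for PSK2 (-0.59), HXK2 (0.41) and BCY1 (1.43).

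The ratio of potassium-free over KCl cells differed between 20 and 60 min, by limma's test of the difference with Benjamini-Hochberg adjustment, for 5 glycogen genes. These were GSY2 (2.11), GLC3 (3.37), GDB1 (3.19), PGM2 (3.52) and UGP1 (2.77). It also differed for 6 of the 24 pathway genes tested, a share close to the 24.9% of all genes: PSK1 by 1.64, GLK1 by 2.49, EMI2 by 1.59, TPK2 by 1.34, RAS2 by 1.01 and HXK2 by -1.03. The adjusted p-values of these 6 ran from 0.0147 to 0.0398.

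For a pair of genes every array of one time point lay above 0 and every array of another below it, a difference that was not tested. GDB1 was below 0 at 20 min and above 0 at 40 min (difference of means 1.84) and 120 min (2.62). HXK2 was above 0 at 20 and 40 min and below 0 at 120 min (differences of -1.73 from 20 min and -1.26 from 40 min).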

How the results depend on the processing

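The calls of GLC3 and GDB1 at 60 and 120 min and of GSY2, PGM2 and UGP1 at 60 min held under all 19 alternatives. Counts of glycogen genes called moved at an adjusted p of 0.01 to 0 at 40 min, 4 at 120 min and 0 for the difference between 20 and 60 min. With the same median absolute deviation they were 4 at 120 min and 1 for that difference, and with quantile normalization 4 and 3. For the difference between 60 and 120 min the other pairing gave 3, each array as a replicate 2 and a dye term 2, against 0. Leaving out an array or an experiment gave from 0 to 5 members at 40 min, from 5 to 8 at 60 min and from 2 to 7 at 120 min. It gave from 0 to 7 for the difference between 20 and 60 min, and 0 in the other comparisons.

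Counts over all genes moved more. At 10 min (0 called) the other pairing gave 4, each array as a replicate 39, a random block for the experiment 7, a dye term 22, the same median absolute deviation 76 and quantile normalization 115. At 20 min (21 called) these gave, in that order, 88, 113, 68, 94, 312 and 376, the time point alone 65 and an adjusted p of 0.01 gave 7. At 40 min (420) they gave 1244, 1340, 936, 1280, 701 and 829, the time point alone 996, and adjusted p of 0.01 and 0.10 gave 46 and 811. At 60 min (1932) the 2 scalings gave 1157 and 1145 and an adjusted p of 0.01 gave 1234. At 120 min (1867) the scalings gave 1067 and 1098, the time point alone 646 and an adjusted p of 0.01 gave 816. Between 20 and 60 min (966) the other pairing gave 1625, each array 1658, a dye term 1627, the scalings 329 and 386, and 0.01 gave 3. Between 60 and 120 min (0) the other pairing gave 655, each array 694, the random block 238 and a dye term 641. The leave-one-out repeats ranged at 20 min from 1 to 22, at 40 min from 19 to 449, at 60 min from 968 to 1995 and at 120 min from 565 to 1881. For the difference between 20 and 60 min they ranged from 0 to 1025, for that between 60 and 120 min from 0 to 1, and at 10 min they gave 0.

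GSY2 minus GSY1 passed with the other pairing (0.85), with 10 min added (0.652) and without experiment A of 20 min (0.859) or of 60 min (0.812), and was at least 0.553 without any 1 experiment. GLG2 minus GLG1 passed with the other pairing (-1.2) and with 10 min added (-1.42), and ranged from -1.87 to -0.841 without 1 experiment. PGM2 minus PGM1 ranged from 1.65 to 2.26 and GAC1 minus PIG1 from 0.744 to 1.03 without 1 experiment. With 7 experiments left, the smaller number of sign flips raises the smallest p these tests can give. Their calls were lost (adjusted p = 0.0625) without A or B of 40 min (1.72 and 1.99, and 0.899 and 1.01), B of 60 min (1.65 and 0.906) and A or B of 120 min (1.97 and 1.83, and 0.8293 and 0.8377).

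Means that were not called changed sign in 18 cases. At 20 min GAC1 became -0.02825 with the other pairing, -0.02625 with median centring, -0.01413 with the same median absolute deviation and -0.02555 with quantile normalization, and ranged from -0.094 (without replicate 2) to 0.0965 without an array or experiment. PGM2 became -0.08795 with the same median absolute deviation. Without experiment A and without B of 20 min, in that order, PGM2 was -0.8205 and 1.046, GSY2 -0.248 and 0.6425 and UGP1 -0.5825 and 0.3025. At 40 min GLG2 became -0.0405 with the other pairing and -0.314 without replicate 2 or experiment A, and was 0.641 without replicate 3. Without A and without B of 40 min GAC1 was -0.457 and 0.92 and GSY1 -0.079 and 1.317, and GAC1 was -0.258 without replicate 4. Without A and without B of 120 min GSY1 at 120 min was 0.9435 and -0.126, and GAC1 from 60 to 120 min 0.0995 and -0.8435. The cause was not tested.

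Single replicate numbers did not pair samples: deviations of same-numbered arrays correlated from -0.338 to 0.412 and those of different-numbered arrays from -0.433 to 0.464. Of 16 arrays, 6 correlated best with their own number. Between 60 and 120 min, however, arrays of the same experiment letter correlated from 0.0362 to 0.464 and those of different letters from -0.433 to -0.0825. The test of the difference between 60 and 120 min and the sign flips did not use this link. With a replicate block 4, 7 and 7 members were called at 40, 60 and 120 min, as without it. GDB1 at 40 min was then not called (adjusted p = 0.0591), PGM2 was (0.0427), and GSY1 at 10 min became -0.27.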
